A study of Danio rerio with 6 samples.

Results

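The genes described here encode the pores and accessory subunits of potassium and sodium channels, the HCN pacemaker channels and the connexins of zebrafish. They were taken by symbol, as rows that begin with kcn, scn, hcn, cx or a gja to gje prefix followed by a number, and had to reach 10 counts summed over the 6 libraries. Of 31701 genes in the table, 155 symbols matched, 24 of them with 0 counts in every library, and 73 genes passed the minimum. gja8b, gjd2b and kcnma1a, with 10 counts each, lay just inside it. kcnj11l and kcnk2b, with 9 counts each, lay just outside. The set is called channels and connexins here, since inward rectifiers, tandem-pore potassium channels, accessory subunits and connexins are not themselves voltage-gated pores.

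Poly(A) RNA was sequenced from the ventricular apex of adult zebrafish of the AB strain at 7 days post amputation (dpa), in 3 control and 3 tbx20-overexpressing libraries. Control fish carried the doxycycline-responsive TRE3G:tbx20 transgene alone. Overexpressing fish (TRE3G:tbx20CMOE) carried it together with cmlc2:TetON-3G, whose cmlc2 promoter places the activator in cardiomyocytes. Fish of both groups were bathed in doxycycline every day, starting 1 day ahead of the resection, so the responder, the drug and the injury were shared by the groups and the driver was not. Each library pooled the apices of 6 hearts (replicate 1) or 8 hearts (replicates 2 and 3), so the spread between libraries is that between pools.

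Voltage-gated sodium channels carry the upstroke of the cardiac action potential, potassium channels return the membrane to rest, and HCN channels conduct the inward pacemaker current. Tandem-pore and inwardly rectifying potassium channels set the resting potential. Connexins assemble into gap junctions, through which current and small molecules pass from cell to cell, and the heart uses several of them side by side. Zebrafish often keep more than 1 copy of a gene that mammals have once, marked by a final a or b.

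Total counts ranged from 13218054 to 17754483 in control and from 12993988 to 14002211 in overexpressing libraries, and the TMM scaling factors from 0.748 to 1.01 and from 1.02 to 1.31. The 13 mitochondrially encoded genes took 16.3 to 20.9% of counts in control and 11.1 to 15.0% in overexpressing libraries. tbx20 was at 41.3, 8.59 and 20.3 CPM (counts per 1e6 counts of the library, TMM-normalized) in control replicates 1, 2 and 3 and at 133, 19.0 and 37.2 CPM in the overexpressing replicates, so it was higher within each pair while the groups overlapped. A pair here means the control and overexpressing libraries of the same replicate number. The labels do not say that such libraries were prepared together. The 8 cardiomyocyte markers, which include myl7 and vmhc, summed to 39380 to 60640 CPM in control and 21609 to 39905 CPM in overexpressing libraries. The 8 epicardial and fibroblast markers summed to 8181 to 10334 and 11690 to 14657 CPM, and the 6 macrophage markers to 222 to 313 and 305 to 551 CPM. The 8 neuron markers summed to 48.8 to 69.0 and 13.3 to 56.9 CPM, with elavl3 at 2 counts and th at 1 count over all libraries. Most of that sum was syt1a, at 53.4 ± 9.91 CPM in control and 28.3 ± 21.9 CPM in overexpressing libraries (SD, n = 3). The other neuron markers tested, elavl4 and snap25a, had log2 fold changes of 0.16 and 0.63. A gene was called when it passed a p below 0.05, not adjusted, with a log2 fold change beyond 0.5 in either direction, in edgeR's quasi-likelihood test. By this rule 2 cardiomyocyte and 2 endothelial markers were lower, and 0 of the neuron markers were called. Higher were 2 epicardial and fibroblast markers and 1 marker each of macrophages (spi1b), smooth muscle (acta2) and T cells (cd4-1). Of all genes, 3.27% were called higher and 5.56% lower. The other smooth muscle markers tested, tagln, myh11a, cspg4 and notch3, were not called (log2 fold changes 0.13, -0.04, -0.23 and 0.22). With the replicate number as a block (6.05% and 8.06% of all genes), 4 cardiomyocyte markers (myl7 and tnnt2a joining) and 1 neuron marker (syt1a) were lower, 3 epicardial and fibroblast markers (postnb and fn1b joining, tcf21 dropping out), 2 macrophage markers (csf1ra joining) and 1 thrombocyte marker (thbs1b) were higher, and the other lists had the same calls. In whole tissue, fewer cells of a type and less RNA per cell cannot be told apart, and the part of these shifts in any result given here was not tested.

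Most of the set was expressed at a low level. By mean FPKM (fragments per kilobase of exon, per 1e6 counts, the scale on which genes can be compared with each other), 46 of the 73 genes lay under 1, 19 between 1 and 10, and 8 at 10 or more. The beta subunit gene scn3b (ENSDARG00000062359), whose product modulates the gating of sodium channels, had the highest level in control hearts, 112 ± 14.8 FPKM (SD, n = 3). kcnh6a, the zebrafish erg channel of repolarization, followed at 73.1 ± 20.1 FPKM. The pacemaker channel hcn2b stood at 37.1 ± 8.59 FPKM and the connexin cx45.6 at 32.4 ± 1.20 FPKM. Among the 5 highest genes, hcn2b and cx45.6 overlapped in their 3 control values, and the other neighbours in the order did not. From gja3 (19.9 ± 8.01 FPKM) down through kcne4, kcnq1, cx41.8, kcnj11, cx32.2, cx43, cx39.4 and cx43.4 (5.02 ± 0.51 FPKM), each gene overlapped the next. In overexpressing hearts scn3b (73.2 ± 29.8 FPKM) and kcnh6a (73.1 ± 29.3 FPKM) stood level at the top, and cx32.2 had moved from rank 10 to rank 5 at 24.8 ± 11.5 FPKM.

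**Figure D1:**
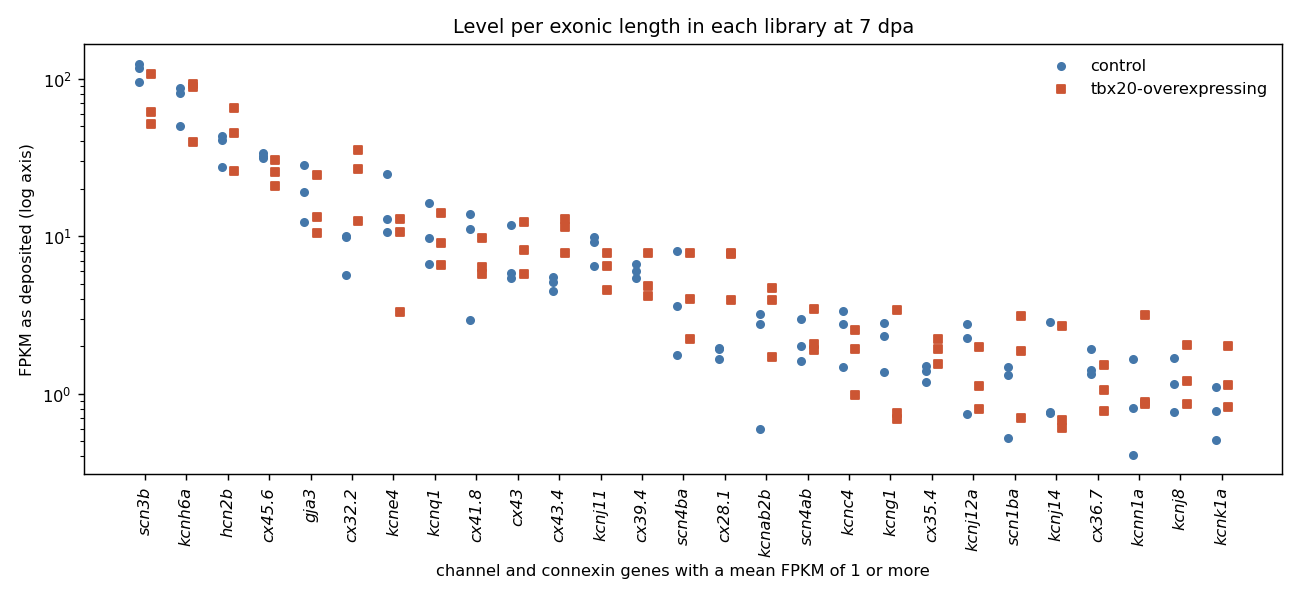
Level of each channel or connexin gene with a mean of 1 FPKM or more, in FPKM on a log axis, with 1 point per library (blue circles, control; red squares, tbx20-overexpressing; 3 libraries each). scn3b and kcnh6a led in both groups, and most genes overlapped between the groups, while cx32.2, cx43.4, cx28.1, cx35.4 and cx45.6 did not on this scale.

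After tbx20 overexpression, the connexins cx32.2, cx43.4 and cx28.1, the inward rectifier kcnj13 and the tandem-pore channel kcnk4a were higher. So were the silent subunit kcng4a and the accessory subunit kcnab1b, but these passed the count filter through their overexpressing libraries alone, so they had to be high there to be tested at all. The sodium channel beta subunit scn3b, the ATP-sensitive potassium channel pore kcnj11 and the connexin cx45.6 were lower. These 10 genes, 7 higher and 3 lower, were those called among the 43 members with enough counts to be tested. That is 23.3% of the tested members, against 8.83% of all 15686 genes tested (3.27% higher and 5.56% lower). Without kcng4a and kcnab1b, 8 of 41 members were called (19.5%), 5 higher and 3 lower. In each of the 10 the groups did not overlap, so all 3 replicate pairs differed in the same direction. The 10 were called on these same values, so this describes them and is no separate support. Over the whole set, 12 of the 43 (27.9%) had groups that did not overlap, against 14.7% of all genes tested. The 12 include kcng4a and kcnab1b, and this share was not computed without them. The exact two-sided permutation test gave p = 0.1 for each of the 10, the smallest that 3 against 3 libraries allow. Groups that do not overlap always give that value.

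After Benjamini-Hochberg adjustment in edgeR, 0 of the 43 members kept a p below 0.05 (10 had one before it), and their smallest adjusted p was 0.315. The same held for 0 of all 15686 genes tested, whose smallest adjusted p in edgeR was 0.108. With the replicate number as a block, the fit called 15 members, 8 higher and 7 lower (34.9%), against 14.1% of all genes (6.05% higher and 8.06% lower). All 10 were among them, kcng3 joined the higher genes and kcne4, gja3, kcnj12a and kcnc4 joined the lower ones, and the smallest adjusted p in edgeR was 0.0621. The 34.9% includes kcng4a and kcnab1b, which passed the count filter through their overexpressing libraries alone. kcng3 had 1 control library and 3 overexpressing libraries over the filter's minimum. DESeq2 gave 1 of the 43 members an adjusted p under 0.05, scn3b, and 239 of all 15686 genes. The median log2 fold change of the 43 was -0.09, with 19 above and 24 below 0, against 0.04 over all genes. Scaling to the total count in place of TMM moved the median of all genes by 0.35, to a value of 0.38 on the log2 scale. The 7 higher calls stood under that scaling and the 3 lower ones did not. An upward shift of all genes favours higher calls. Of all genes, 1843 were called higher and 257 lower under it, against 513 and 872 with TMM.

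**Figure D2:**
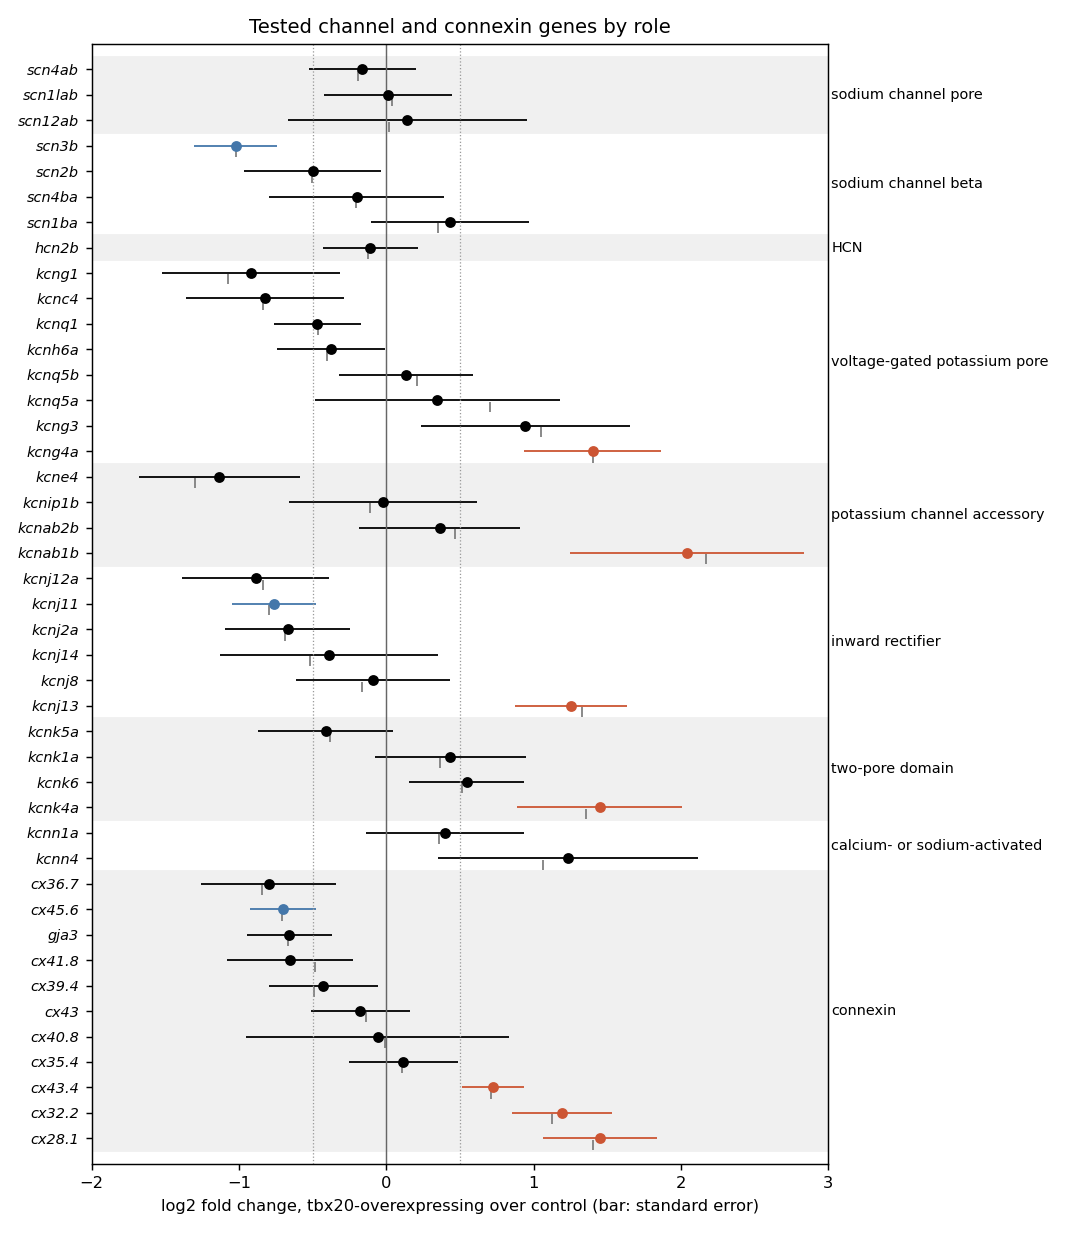
Log2 fold change (tbx20-overexpressing over control) of the 43 tested genes by role, with bars of 1 standard error and, as grey ticks, the value of the fit with the replicate block. Dotted lines mark 0.5 in each direction; red genes were called higher and blue genes lower, and those not called are black. The connexins spread from -0.80 to 1.45.

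Of the sodium channel genes, the beta subunit scn3b was called and the pores were not. scn3b was at 362, 580 and 400 CPM in control libraries and at 208, 167 and 286 CPM in overexpressing libraries. The lowest control library lay above the highest overexpressing one. The mean went from 447 ± 116 to 220 ± 60.6 CPM (SD, n = 3; log2 fold change -1.02 ± 0.28 SE, edgeR adjusted p = 0.332), and the block gave -1.02 ± 0.26 (SE; edgeR adjusted p = 0.102). The call held with each library left out, with log2 fold changes from -1.26 to -0.80. Over all fits its adjusted p ranged from 0.0454 in DESeq2 to 0.676. With total-count scaling, the log2 fold change was -0.61 and was not called.

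The other beta subunits were less abundant. scn4ba was at 18.2, 4.90 and 7.40 CPM in control and at 15.8, 4.25 and 6.37 CPM in overexpressing libraries, so replicate 1 was high in both groups and the groups overlapped (log2 fold change -0.20 ± 0.59 SE). scn1ba had a log2 fold change of 0.43 ± 0.54 (SE) and scn2b of -0.50 ± 0.46 (SE), neither called, and scn1bb was not tested. Of 6 beta symbols 5 were members and 4 were tested, with 0 called higher and 1 lower, against 3.27% and 5.56% of all genes.

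Of 8 pore symbols for sodium channels 3 were members, and none of these 3 was called. scn4ab, the relative of the mammalian skeletal muscle channel, was at 23.6, 19.5 and 11.8 CPM in control and 24.6, 12.8 and 11.6 CPM in overexpressing libraries, and 2.20 ± 0.70 FPKM in control. scn12ab, which RefSeq also lists as scn5lab, a relative of the mammalian cardiac channel, was at 3.46, 1.13 and 0.80 CPM and 4.14, 0.53 and 1.24 CPM. Replicate 1 was again the highest library of each group. scn1lab, a relative of the mammalian brain channel, had a log2 fold change of 0.01 ± 0.43 (SE). Summed over the role, pores reached 2.10 to 4.30 FPKM in control, against 106 to 128 FPKM for the beta subunits. Most of the latter was scn3b, at 95.6 to 124.5 FPKM. The exonic length given for scn12ab was 2763 bases, against 7305 for scn4ab and 8447 for scn1lab, and whether it covers the whole gene was not examined.

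hcn2b was at 93.2, 170.5 and 135 CPM in control and at 139, 75.7 and 155 CPM in overexpressing libraries. The groups overlapped, and the direction differed among the pairs (log2 fold change -0.11 ± 0.32 SE). hcn4, the main sinoatrial pacemaker channel of mammals, had 70 counts over the 6 libraries and was not tested. Of 5 HCN symbols only these 2 were members.

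The most abundant voltage-gated potassium channel, kcnh6a, was at 270, 538 and 431 CPM in control and at 425, 181 and 350 CPM in overexpressing libraries. The groups overlapped (log2 fold change -0.37 ± 0.37 SE). The same library was lowest in each group for kcnh6a and hcn2b, replicate 1 in control and replicate 2 in overexpressing hearts. kcnq1, the pore of the slow repolarizing current in mammals, was at 30.4, 25.3 and 46.0 CPM in control and 25.4, 17.5 and 30.7 CPM in overexpressing libraries. It was lower in 3 of 3 pairs while the groups overlapped. Its log2 fold change was -0.47 ± 0.29 (SE) and with the block -0.46 ± 0.16 (SE), under the fold threshold in both.

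kcng4a, a silent subunit that modifies other voltage-gated potassium channels and forms no channel alone, was at 0.33, 0.53 and 0.46 CPM in control and 1.29, 1.13 and 1.12 CPM in overexpressing libraries. The groups did not overlap, at 4 to 19 counts per library, and no control library reached the filter's minimum. The log2 fold change was 1.40 ± 0.47 (SE; edgeR adjusted p = 0.402), and the call was lost without control replicate 1, control replicate 3 or overexpressing replicate 1. A relative, kcng3, was called higher with the block and not in the unpaired fit (log2 fold change 1.05 ± 0.45 SE, edgeR adjusted p = 0.292), at 4 to 37 counts per library. The more abundant relative kcng1 leaned the other way, at 5.27, 7.84 and 2.87 CPM in control and 1.43, 1.46 and 5.49 CPM in overexpressing libraries. It was called in neither fit (log2 fold change -0.92 ± 0.60 SE, with the block -1.07 ± 0.63 SE), but was called lower without overexpressing replicate 3.
kcnc4, of the fast-activating Shaw type, was at 5.44, 8.06 and 2.64 CPM in control and 4.50, 3.25 and 1.36 CPM in overexpressing libraries and was called lower with the block and not in the unpaired fit (log2 fold change -0.84 ± 0.30 SE, edgeR adjusted p = 0.207). Of 45 symbols of this role 16 were members and 8 were tested, with 1 called higher and 0 lower, and with the block 2 higher and 1 lower. The shares of all genes were 3.27% and 5.56%, and with the block 6.05% and 8.06%.

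Among the accessory subunits, kcne4 was the most abundant. Its product inhibits the kcnq1 channel of mammals in expression systems. It was at 94.1, 59.7 and 36.6 CPM in control and at 43.8, 34.2 and 8.79 CPM in overexpressing libraries. In both groups replicate 1 was highest and replicate 3 lowest, so the groups overlapped while 3 of 3 pairs were lower. The unpaired log2 fold change was -1.13 ± 0.55 (SE; edgeR adjusted p = 0.607), and with the block it was -1.30 ± 0.24 (SE; edgeR adjusted p = 0.0621), the smallest adjusted p of the set in that fit. DESeq2 also called it lower.

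kcnab1b, a cytoplasmic beta subunit of Shaker-type channels, was at 0.08, 0.68 and 0.11 CPM in control and 0.79, 0.93 and 1.89 CPM in overexpressing libraries. Its log2 fold change was 2.04 ± 0.79 (SE; edgeR adjusted p = 0.476), at 1 to 32 counts per library. No control library reached the minimum of the count filter, which the gene passed through its overexpressing libraries alone. The call was lost without control replicate 1, control replicate 3 or overexpressing replicate 3, and the gene overlaps dnaaf6 in RefSeq's GRCz12tu annotation. kcnab2b and kcnip1b had log2 fold changes of 0.36 ± 0.55 (SE) and -0.02 ± 0.64 (SE). Of 10 accessory symbols 8 were members and 4 were tested, with 1 called higher and 0 lower, and with the block 1 in each direction. Over all genes 3.27% were called higher and 5.56% lower, and with the block 6.05% and 8.06%.

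The inward rectifiers moved in both directions. kcnj11, the pore of the ATP-sensitive potassium channel that couples metabolism to excitability, was at 12.3, 9.94 and 10.5 CPM in control and 8.71, 4.84 and 5.72 CPM in overexpressing libraries. The groups did not overlap, and the means were 10.90 ± 1.22 and 6.43 ± 2.03 CPM (SD, n = 3). The log2 fold change was -0.76 ± 0.29 (SE; edgeR adjusted p = 0.455), and with the block -0.80 ± 0.21 (SE; edgeR adjusted p = 0.110). The unpaired call was lost without control replicate 1, control replicate 3, overexpressing replicate 2 or overexpressing replicate 3, and with total-count scaling (-0.44).

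The ATP-sensitive channel needs a sulfonylurea receptor around its pore, and both receptor genes were among the listed partners. abcc8 went from 7.47 ± 5.83 to 1.33 ± 0.68 CPM (SD, n = 3; log2 fold change -2.49 ± 0.69 SE, edgeR adjusted p = 0.332), and was called lower. The more abundant abcc9 went from 126 ± 43.6 to 73.2 ± 33.0 CPM, a log2 fold change of -0.79 ± 0.35 (SE; edgeR adjusted p = 0.564) that was called with the block and not in the unpaired fit. kcnj8, the other pore of this channel type, was at 2.31, 1.28 and 1.43 CPM in control and 2.499, 1.39 and 0.83 CPM in overexpressing libraries and was not called (log2 fold change -0.09 ± 0.52 SE).

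kcnj13, best known in zebrafish for its part in the stripe pattern of the skin, was at 4.86, 1.73 and 3.84 CPM in control and 7.85, 8.69 and 8.38 CPM in overexpressing libraries. The 3 overexpressing libraries lay close together, above every control. The log2 fold change was 1.26 ± 0.38 (SE; edgeR adjusted p = 0.356), and with the block 1.33 ± 0.33 (SE; edgeR adjusted p = 0.0970), and the call held in all 6 fits that left out a library (0.93 to 1.57). The 6 pigment cell markers summed to 1.51 to 1.89 CPM in control and 1.77 to 3.45 CPM in overexpressing libraries. dct had 8 and tyr 7 counts over all libraries. mitfa, the 1 marker of these that was tested, went from 0.66 ± 0.08 to 1.45 ± 0.56 CPM (SD, n = 3). Its groups did not overlap, and it was not called (log2 fold change 1.12 ± 0.50 SE, edgeR adjusted p = 0.554). The part of pigment cells in the kcnj13 value was not tested. The span of the gene overlaps that of gal3st2 in RefSeq's annotation, and whether their exons overlap was not examined. The library kit does not mark strand, so reads from any shared exon could not be told apart by strand.

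The classical strong rectifiers, which hold the resting potential of ventricular muscle in mammals, were low. kcnj12a was at 3.54, 1.43 and 3.96 CPM in control and 1.57, 1.06 and 2.18 CPM in overexpressing libraries, and was called lower with the block and not in the unpaired fit (log2 fold change -0.84 ± 0.35 SE, edgeR adjusted p = 0.280). kcnj2a was at 1.73, 1.43 and 1.89 CPM and 1.29, 1.13 and 0.77 CPM. Its groups did not overlap, but it was not called (log2 fold change -0.67 ± 0.42 SE). kcnj14 was high in replicate 1 of both groups, at 12.8 and 10.8 CPM, and was not called (log2 fold change -0.39 ± 0.74 SE). Of 22 symbols of inward rectifiers 8 were members and 6 were tested, with 1 called in each direction, and with the block 1 higher and 2 lower. All genes had 3.27% called higher and 5.56% lower, and with the block 6.05% and 8.06%.

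The tandem-pore channels, which conduct background potassium current, had means under 2 FPKM in each group. kcnk4a, a relative of the mechanosensitive TRAAK channel, was at 1.15, 0.53 and 1.03 CPM in control and 4.21, 1.79 and 1.48 CPM in overexpressing libraries. Overexpressing replicate 1 stood above the rest. The log2 fold change was 1.45 ± 0.56 (SE; edgeR adjusted p = 0.470), at 7 to 59 counts per library over 9914 bases of exon, and the call was lost without control replicate 2, control replicate 3 or overexpressing replicate 1. It overlaps LOC110438979, a protein-coding gene, in RefSeq's annotation. kcnk6, kcnk1a and kcnk5a were not called, with log2 fold changes of 0.55 ± 0.39 (SE), 0.44 ± 0.51 (SE) and -0.41 ± 0.46 (SE). Of 20 symbols 8 were members and 4 were tested, with 1 called higher and 0 lower in both fits. The matching shares of all genes were 3.27% and 5.56% unpaired, and 6.05% and 8.06% with the block.

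The calcium- or sodium-activated potassium channels had 4 members of 7 symbols, all 4 of them calcium-activated. kcnn1a was at 5.60, 3.47 and 10.5 CPM in control and 5.43, 5.04 and 15.4 CPM in overexpressing libraries, with replicate 3 highest in both groups (log2 fold change 0.40 ± 0.54 SE). kcnn4 had a log2 fold change of 1.23 ± 0.88 (SE) that changed sign, to -0.11, without overexpressing replicate 3, its highest library. Neither was called.

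**Figure D3:**
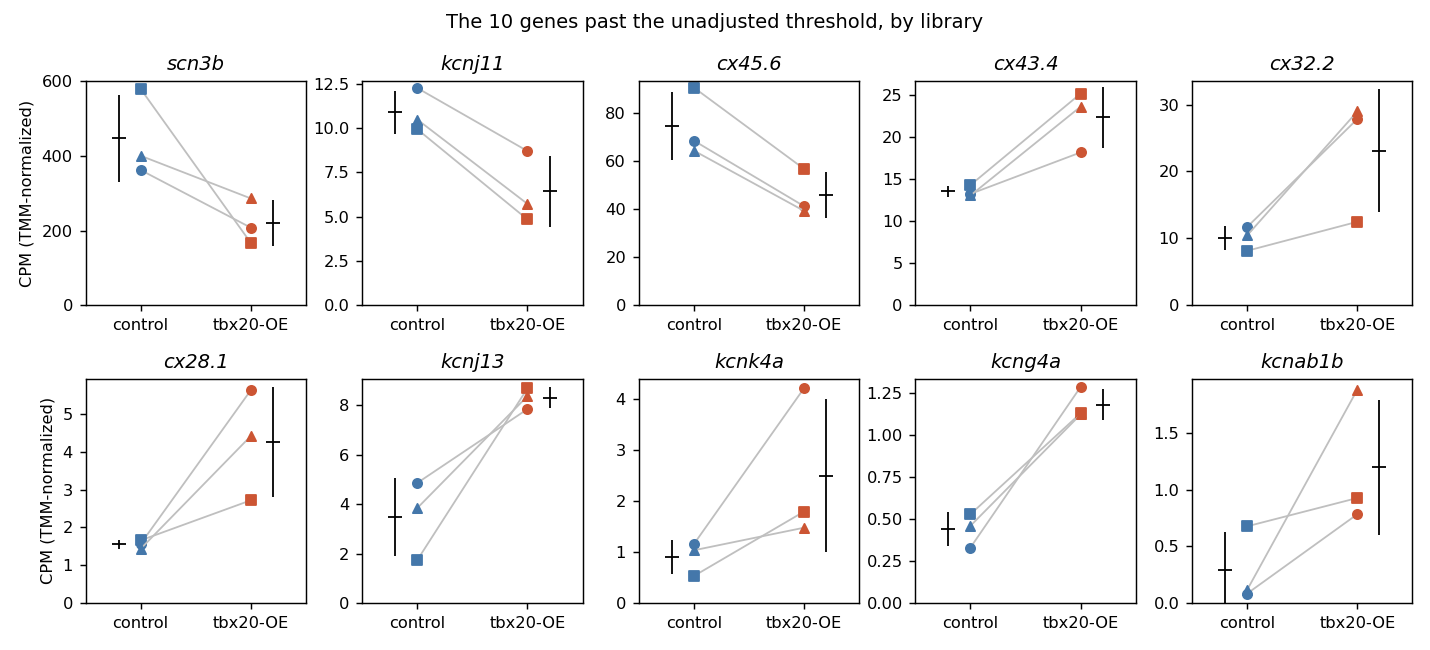
TMM-normalized CPM of the 10 called genes in each library, with a grey line joining each control library to its tbx20-overexpressing pair (circle, square and triangle for replicates 1, 2 and 3); black bars give the mean and SD of 3 libraries and are cut at 0. scn3b, kcnj11 and cx45.6 were lower in every pair and the other 7 genes were higher in every pair.

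The connexins were the role with the most tested members, 11, and also with the most called, 4, where 8.83% of all genes were called. Of 32 symbols 19 were members. In the unpaired fit 3 connexins were called higher and 1 lower, against 3.27% and 5.56% of all genes. With the block 3 were higher and 2 lower, against 6.05% and 8.06%.

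cx32.2 (ENSDARG00000076789), listed as gja13.2 in RefSeq, was at 11.7, 8.14 and 10.4 CPM in control and 27.8, 12.5 and 29.0 CPM in overexpressing libraries. Replicate 2 was the lowest library of each group, and its overexpressing value lay just above the highest control. The mean went from 10.1 ± 1.80 to 23.1 ± 9.22 CPM (SD, n = 3; log2 fold change 1.19 ± 0.34 SE, edgeR adjusted p = 0.334), and with the block 1.13 ± 0.21 (SE; edgeR adjusted p = 0.0634). It was called in all 6 fits that left out a library, from 0.99 to 1.49, and the highest value came without overexpressing replicate 2.

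cx43.4 (ENSDARG00000007099), gjc4b in RefSeq, was at 13.3, 14.3 and 13.1 CPM in control and 18.2, 25.2 and 23.7 CPM in overexpressing libraries. The 3 control libraries lay close together, below every overexpressing one. The log2 fold change was 0.72 ± 0.21 (SE; edgeR adjusted p = 0.340), and with the block 0.71 ± 0.17 (SE; edgeR adjusted p = 0.0898), with 0.63 to 0.85 over the fits that left out a library, all called. In RefSeq's annotation the gene overlaps 2 genes of long noncoding RNA, and whether their exons overlap was not examined.

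cx28.1 (ENSDARG00000041792) was at 1.56, 1.66 and 1.43 CPM in control and 5.64, 2.72 and 4.43 CPM in overexpressing libraries. The groups did not overlap, at 19 to 79 counts per library, and replicate 2 was again the lowest of the overexpressing libraries. Its log2 fold change was 1.45 ± 0.39 (SE; edgeR adjusted p = 0.315), and with the block 1.40 ± 0.35 (SE; edgeR adjusted p = 0.0981), and all 6 fits that left out a library called it (1.20 to 1.69). Of connexins with similar names, cx28.6, cx28.8, cx28.9 and cx32.3 had under 10 counts each, while cx32.2, described above, had 1501. cx28.1 was not matched in RefSeq, so its overlaps and neighbours there were not looked up. How reads shared between close copies were counted is not given in the sources used here.

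cx45.6 (ENSDARG00000040065), gja5a in RefSeq and a relative of the mammalian connexin of atrial and conducting muscle, was at 68.4, 90.4 and 64.2 CPM in control and 41.1, 56.6 and 39.2 CPM in overexpressing libraries. The groups did not overlap, and replicate 2 was the highest of each. The mean went from 74.3 ± 14.1 to 45.64 ± 9.55 CPM (SD, n = 3; log2 fold change -0.70 ± 0.22 SE, edgeR adjusted p = 0.377), and with the block -0.71 ± 0.14 (SE; edgeR adjusted p = 0.0686). It was called with each library left out (-0.89 to -0.55) and not with total-count scaling (-0.34).

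gja3, a connexin of the lens in mammals, was at 30.6, 24.3 and 41.5 CPM in control and 15.3, 18.3 and 27.6 CPM in overexpressing libraries. It was lower in 3 of 3 pairs and the groups overlapped (log2 fold change -0.66 ± 0.29 SE, edgeR adjusted p = 0.548). With the block, and in DESeq2, it was called lower (with the block, log2 fold change -0.67 ± 0.17 SE, edgeR adjusted p = 0.109).
cx41.8, gja5b in RefSeq and the leopard gene of stripe formation, was at 42.0, 10.92 and 31.1 CPM in control and 17.5, 14.9 and 20.9 CPM in overexpressing libraries. Control replicate 2 lay below all 3 overexpressing libraries and the other controls above them, and the gene was not called (log2 fold change -0.66 ± 0.43 SE).

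cx43, gja1b in RefSeq and the counterpart of the main ventricular connexin of mammals, was at 37.2, 21.2 and 17.0 CPM in control and 23.3, 15.7 and 27.6 CPM in overexpressing libraries. The groups overlapped and the gene was not called (log2 fold change -0.18 ± 0.33 SE). cx36.7, needed for heart formation in zebrafish embryos, was at 2.47, 2.11 and 1.66 CPM in control and 1.21, 1.66 and 0.71 CPM in overexpressing libraries. Its groups did not overlap by a narrow margin, and it was not called (log2 fold change -0.80 ± 0.46 SE). In RefSeq's gene order, cx32.2 and cx43 are neighbours on chromosome 20, with log2 fold changes of 1.19 and -0.18. 5 other pairs of members were neighbours, of which scn2b and scn4ba alone had both genes tested, and neither of these was called.

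The makeup of connexin transcripts can be given without any scaling between libraries, as each gene's share of the summed connexin FPKM of its own library. The sum itself does depend on scaling between libraries. On the deposited FPKM, which are scaled to total counts, it was 95.3 ± 16.5 in control and 110 ± 22.8 in overexpressing hearts (SD, n = 3), and the groups overlapped. Total-count scaling shifts the overexpressing libraries upward beside TMM, and the sum was not computed with TMM, so no direction is read from it. cx32.2, cx43.4 and cx28.1 together took 16.2, 15.5 and 16.5% in control and 41.3, 30.0 and 41.1% in overexpressing libraries. cx45.6, gja3 and cx41.8, the 3 with the highest mean level in control, together took 60.9, 64.0 and 68.5% in control and 37.2, 53.2 and 43.7% in overexpressing libraries. The groups overlapped for neither trio. Both were put together after their values were seen, so the shares are a description and carry no test. Singly, cx32.2 went from 8.79 ± 1.17 to 21.8 ± 7.22%, cx43.4 from 5.32 ± 0.52 to 9.79 ± 2.31% and cx28.1 from 1.96 ± 0.20 to 5.85 ± 1.69%, each with no overlap. cx45.6, at 34.9 ± 8.00 and 24.0 ± 7.58%, overlapped, and so did gja3 and cx41.8. cx43 held 7.95 ± 2.84 and 7.76 ± 1.43%. Overexpressing replicate 2 lay nearest to the controls for both trios.

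**Figure D4:**
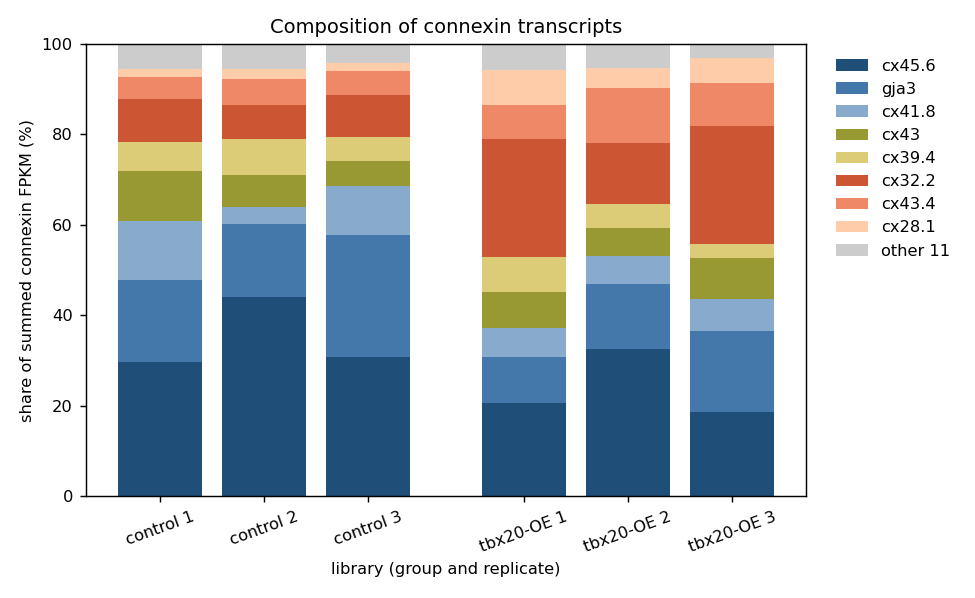
Share of each connexin in the summed connexin FPKM of its library, in percent, for the 3 control and 3 tbx20-overexpressing libraries; the 11 connexins with the smallest shares are joined in grey. The red shades (cx32.2, cx43.4 and cx28.1) took 15.5 to 16.5% in control and 30.0 to 41.3% in overexpressing libraries.

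The fits that left out a library separated the called genes. cx28.1, cx32.2, cx43.4, cx45.6, kcnj13 and scn3b were called in all 6 such fits, kcnab1b, kcng4a and kcnk4a in 3 and kcnj11 in 2. The genes called in 3 were those with fewer than 60 counts in every library. No gene called in the unpaired fit changed sign in any alternative fit.

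**Figure D5:**
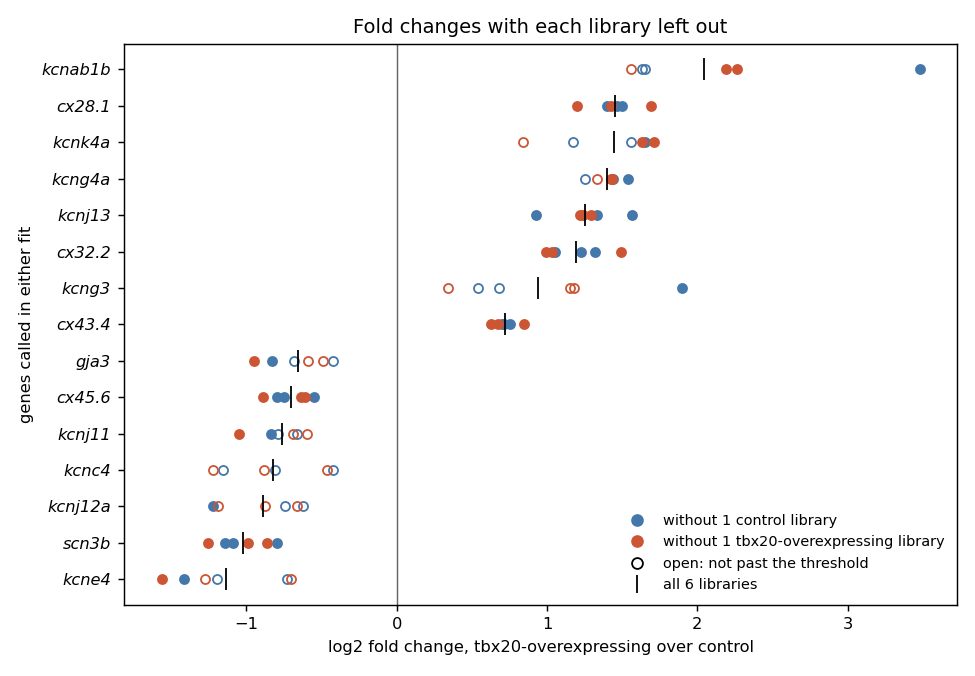
Log2 fold change of the 15 genes called in either fit, with each library left out in turn (blue, without a control library; red, without a tbx20-overexpressing library; filled where the gene passed the threshold). Black ticks give the value over all 6 libraries. cx43.4 lay between 0.63 and 0.85 and was called each time, and kcne4 ranged from -1.56 to -0.71.

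Of the 50 partner genes listed for these channels (sulfonylurea receptors, calcium channels, anchors, Popeye proteins, pannexins and regulators), 48 were in the table and 37 were tested. Against 3.27% of all genes called higher and 5.56% called lower, 0 of the 37 were called higher and 7 lower, abcc8, ank3a, cacna1g, popdc2, popdc3, bves and lrrc10, and the median log2 fold change was -0.26. With the block, against 6.05% and 8.06% of all genes, 2 were called higher (irx3a and ano6) and 8 lower, popdc3 dropping out and abcc9 and dpp6b joining. ank3a, the gene of ankyrin-G, which anchors sodium channels in the membrane, went from 432 ± 100 to 189 ± 41.9 CPM (SD, n = 3; log2 fold change -1.19 ± 0.26 SE, edgeR adjusted p = 0.257). cacna1g, a T-type calcium channel, went from 240 ± 88.7 to 112 ± 25.4 CPM, a log2 fold change of -1.10 ± 0.31 (SE; edgeR adjusted p = 0.332). lrrc10, a cardiomyocyte protein, had a log2 fold change of -0.78 ± 0.18 (SE; edgeR adjusted p = 0.276). bves and popdc2, of the cAMP-binding Popeye family, had -0.74 and -0.66. The summed partner level was 3201 to 4408 CPM in control and 2229 to 3187 CPM in overexpressing libraries, and the cardiomyocyte marker sum given above was also the lower in the overexpressing group, overlapping the controls.

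The 30 members that were not tested had 10 to 70 counts over the 6 libraries. Those with groups that did not overlap in CPM were kcnk9, kcnn3 and kcnh5b (higher) and kcnj9 and kcnh7 (lower). Of all genes tested, 14.7% had such groups, and the share over all genes not tested was not computed. kcnk9, a tandem-pore channel, had 0 counts in each control library and 4, 6 and 2 in the overexpressing ones. It thus reached the 10-count minimum through the overexpressing libraries alone. kcnn3, a calcium-activated channel, had 2, 4 and 1 and then 6, 10 and 7, and kcnh5b 2, 2 and 3 and then 4, 5 and 3. The kcnh5b groups were apart only through scaling, as replicate 3 had 3 counts in each group (0.172 and 0.177 CPM). Lower were kcnj9, with 3, 5 and 5 and then 1, 1 and 2, and kcnh7, with 5, 4 and 2 and then 1, 0 and 1. These counts lay below the depth at which the main test was run.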

How the data were processed

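By the submitters' processing notes, the authors trimmed reads (Trimmomatic 0.30), aligned them with HISAT2 2.0.1 to GRCz10 and deposited raw counts per gene with FPKM values. The counting tool and the handling of strand and of multiply mapped reads are not given in the sources used here. The deposited FPKM equal count divided by exonic length and library total in 190206 of 190206 values (tolerance 0.0051), so they carry no further normalization. No coordinates were used here, and names, overlaps and gene order were taken from RefSeq's GRCz12tu by symbol or synonym (70 of 73 members matched, 15 under another symbol, and 38 overlapped another gene there). No sequences were used here.

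Counts were tested in R 4.3.3 with edgeR 4.0.16 (filterByExpr, TMM, quasi-likelihood F test, two-sided) over all 15686 genes kept, with Benjamini-Hochberg adjustment over them. A gene was called where its p, not adjusted, was below 0.05 and its log2 fold change lay beyond 0.5 in either direction. The permutation test used log2(CPM + 0.5). Standard errors are the fold change over the square root of F.

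Same-numbered control and overexpressing libraries deviated together from their group means (correlation across genes 0.474, 0.419 and 0.511). Unlike numbers gave at most -0.138. That contrast is no separate support, since deviations cancel within a group and like signs for same numbers force unlike signs elsewhere. The labels give a replicate number and no pairing, so a fit with the replicate block is given beside the unpaired one. No 2 libraries of a group were duplicates (chi-square per degree of freedom 44.9 to 79.4). Replicates are described as independent biological replicates.

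Named genes were the members called in either fit, the 3 with the highest mean FPKM per role, and a list of heart genes. Other members are named beside these for context. The members and lists were chosen with earlier results of these data known. Alternatives were DESeq2 1.42.0, RLE, upper-quartile and total-count scaling, 3 other filters, limma 3.58.1 on log2(FPKM + 1) or log2(FPKM + 0.1), the block, and leaving out 1 library at a time. The scripts were tested on simulated data.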

Additional observations from a re-analysis of the deposited data

How the results depend on the processing

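The number of members called was 10 in the unpaired edgeR fit and 8 to 12 with each library left out, and limma on log2(FPKM + 1) gave 6. Members called higher numbered 7 and were 5 to 7 with a library left out, and 4 with a minimum of 10 counts in every library, which left kcnab1b, kcng4a and kcnk4a untested. Higher calls over all genes were 513 in the unpaired fit, 428 to 573 with a library left out and 445 with that minimum. Members called lower numbered 3. Beyond the 5 members it added, the replicate block changed no call among the members. The count of lower calls was 7 with the replicate block, 5 with DESeq2, 5 with no filter, 5 with 10 summed counts, 1 with limma at either pseudocount, 0 with total-count scaling and 2 to 6 with a library left out, 6 without control replicate 2 or overexpressing replicate 1. At an adjusted p under 0.05, DESeq2 gave 1 member and the other fits 0. Of all genes, 1385 were called, 2213 with the replicate block, 1750 with limma on log2(FPKM + 1), 2100 with total-count scaling (1843 higher and 257 lower, against 513 and 872) and 1097 to 1568 with a library left out. At an adjusted p under 0.05 the counts over all genes were 0 in the unpaired fit, 84 with the block, 239 with DESeq2, 32 with no filter, 3 with limma on log2(FPKM + 0.1) and 0 to 2 with a library left out.

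For the 10 called genes, 135 of 157 values under the alternatives kept their direction and their call, 22 lost the call and 0 changed direction. Calls were lost by scn3b, kcnj11 and cx45.6 with total-count scaling, by kcnj11 and cx45.6 with limma at either pseudocount, and by kcng4a and kcnk4a with limma on log2(FPKM + 1). The FPKM fits keep total-count scaling.

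Directions changed only among genes that were not called, in 43 of 569 values. Under total-count scaling, limma on log2(FPKM + 1) and limma on log2(FPKM + 0.1), the log2 fold change became 0.19, 0.19 and 0.21 for cx43, 0.29, 0.21 and 0.22 for hcn2b, 0.39, 0.10 and 0.14 for kcnip1b, 0.19, 0.094 and 0.15 for kcnj8, 0.17, 0.11 and 0.15 for scn4ab and 0.069, 0.10 and 0.14 for scn4ba. Total-count scaling gave 0.0014 for kcnh6a, and upper-quartile factors gave 0.018 for kcnip1b. With a library left out, the range was -0.39 to 0.23 for cx43, -0.31 to 0.14 for hcn2b, -0.055 to 0.76 for kcnab2b, -0.44 to 0.40 for kcnip1b, -1.58 to 0.48 for kcnj14, -0.59 to 0.21 for kcnj8, -0.11 to 0.73 for kcnk1a, -0.33 to 0.94 for kcnn1a, -0.11 to 2.10 for kcnn4, -0.995 to 1.03 for scn12ab, -0.22 to 0.15 for scn1lab, -0.59 to 0.070 for scn4ab and -0.93 to 0.52 for scn4ba. The cause was not tested.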

Other observations

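The table also holds 22 channel and connexin symbols in capitals, which the lower-case rule did not take, 9 of them with 10 or more counts. KCNG2, named for a silent subunit of voltage-gated potassium channels, was the only one above 1 FPKM on average (6.58 FPKM, 1555 counts). It was at 21.3, 5.73 and 23.7 CPM in control and 18.3, 15.9 and 18.3 CPM in tbx20-overexpressing libraries, with control replicate 2 apart from the other 5 libraries, and was not called (log2 fold change 0.05, standard error 0.45, adjusted p = 0.993 from edgeR). KCNT1, named for a sodium-activated potassium channel, had 1, 0 and 1 counts in control and 10, 6 and 5 in overexpressing libraries, 23 in all, and was not tested. A second row named KCNJ11 had 19 counts over the 6 libraries, so few reads were assigned to it beside kcnj11. These genes were chosen after their values were seen.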
